A study of Sus scrofa with 6 samples.

Results

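Small heat shock proteins and BAG co-chaperones were followed in cultured pig granulosa cells exposed to heat. The genes were taken by symbol: the small heat shock proteins HSPB1, HSPB6, HSPB8 and CRYAB, and the BAG genes BAG1, BAG2, BAG3, BAG4, BAG5 and BAG6. Each symbol matched 1 Ensembl identifier. They make up 10 of 35670 identifiers in the count table, and all 10 were among the 14242 with enough reads to be tested.

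Small heat shock proteins bind unfolding proteins without using ATP and hold them in a state from which other chaperones can refold them. Most BAG proteins carry a domain that contacts HSP70 and makes it release nucleotide and client. BAG3 links both families: it binds HSPB8 and HSP70 at once and hands damaged clients, among them filamin, to autophagy. Heat shock transcription factor HSF1 is the usual inducer of such genes in heated cells.

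The study compared 6 libraries of stranded mRNA sequencing from granulosa cells of Sus scrofa, which nourish the oocyte and make estradiol in the follicle. Cells were aspirated from small follicles, grown as primary cultures in medium with fetal bovine serum to over 70% confluency, and lifted with trypsin. The heat group (n = 3) spent 6 h at 42 °C and the control group (n = 3) spent 6 h at 37 °C. The labels name biological replicates but do not say whether these were separate animals or cultures, or whether animals were pooled, so p-values measure the spread between these samples only.

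Library totals ran from 18711440 to 29606378 reads. Control 2 and control 3 were nearly alike (Pearson r = 0.990 over genes on the log2 scale), as were heat 1 and heat 2 (r = 0.991). Control 1 and heat 3 stood apart from the rest of their groups. Control 1 had r = 0.901 and 0.905 with control 2 and 3, and heat 3 had r = 0.916 and 0.909 with heat 1 and 2. The correlation of control 1 with heat 3 was 0.920, above each of these values. The 12 granulosa markers with a symbol summed to between 467 and 1330 CPM in controls and between 641 and 1025 CPM in heat. Most of that came from the cadherin gene CDH2, at 210 to 850 CPM over the 6 libraries, and the inhibin beta A gene INHBA, at 154 to 387 CPM. NR5A1, NR5A2 and INHBB were read at 2.47 to 8.22, 7.76 to 14.3 and 2.45 to 10.2 CPM. Some other markers of that list were close to absent. FSHR, the receptor for follicle-stimulating hormone, reached at most 2.14 CPM (counts per library scaled to a common depth), the inhibin subunit INHA at most 0.306 CPM and AMH at most 0.279 CPM. FSHR and INHBA were lower in every heat library than in every control. The gonadal factor WT1 was read at 26.4 to 44.7 CPM. The gonadal factor GATA4 was at 38.3, 9.56 and 10.7 CPM in control 1, 2 and 3 and at 82.1, 81.5 and 66.1 CPM in heat 1, 2 and 3. For GATA4 the edgeR adjusted p was 0.0592, and DESeq2 and limma-voom called it higher. Of 7 tested granulosa markers, edgeR called 0. The 9 stromal markers with a symbol summed to between 6699 and 59118 CPM in controls and between 28084 and 87926 CPM in heat. Nearly all of each sum came from the collagen genes COL1A1, COL1A2 and COL3A1, at 17714, 25719 and 14795 CPM in control 1. The 10 smooth muscle markers summed to between 12007 and 13099 CPM in controls and between 8201 and 19282 CPM in heat. Leukocyte markers (10 genes) summed to 3.67, 34.8 and 69.2 CPM in control 1, 2 and 3 and to between 1.56 and 6.03 CPM in heat. Of these, LYZ was at 0.467, 26.3 and 54.1 CPM in control 1, 2 and 3. PTPRC had 35 and 64 reads in control 2 and 3 and 0 in control 1 and in heat. The defining theca gene INSL3, endothelial gene CDH5 and epithelial gene EPCAM had no read in any library. The 7 endothelial markers with a symbol summed to between 6.08 and 12.6 CPM over all libraries, mostly from PECAM1, which was read in each at 5.23 to 10.8 CPM. The sums of the theca list (5.50 to 26.4 CPM in controls, 27.5 to 78.6 CPM in heat) and of the epithelial list (3.93 to 22.5 and 20.6 to 109 CPM) ran higher in heat. The theca sum came almost wholly from NR2F2 and PTCH1, which DESeq2 called higher and edgeR did not call. CYP17A1 and LHCGR had at most 4 and 6 reads in a library. EdgeR called 2 of 3 tested epithelial markers, UPK3B and KRT8, higher and 1 of 3 tested leukocyte markers, LYZ, lower. Over all tested genes, edgeR called 6.71% higher and 4.32% lower. The part of other cell types in the results below was not tested.

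Of the 10 genes, 6 were higher in heat, 0 were lower and 4 did not pass the test (edgeR quasi-likelihood test, Benjamini-Hochberg adjusted p below 0.05). Those that rose were HSPB8, HSPB1 and CRYAB among the small heat shock proteins and BAG3, BAG2 and BAG6 among the BAG genes. The edgeR adjusted p was 0.00906 for HSPB8 and at most 0.0398 for the other five. Over all genes tested, 6.71% were called higher and 4.32% lower. With an unadjusted edgeR p below 0.05 the counts for the 10 genes were 6 higher and 0 lower, where 19.5% of all tested genes were higher and 14.4% lower. DESeq2 also called 6 higher and 0 lower (14.9% and 12.6% of all tested genes), as did limma-voom (7.41% and 5.14%). Every heat library lay above every control for 7 genes, against 20.9% of all tested genes, and below every control for 0 genes, against 16.8%. The median log2 fold change of the 10 genes was 1.52, against 0.05 over all tested genes. In bulk RNA, a change in the number of cells of a type and a change in RNA per cell cannot be told apart.

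The number of calls changed when single libraries were left out. The edgeR test called 7 of the 10 genes higher without control 1 and 6 without heat 3. In these fits it called more of all tested genes higher as well, 3021 of 15407 and 2817 of 15325. It called 1, HSPB8, without heat 1 or without heat 2, when it called 7 and 6 of all tested genes higher. It called 0 without control 2 or without control 3, when it called 0 of all tested genes as well. Over these 4 fits the log2 fold changes stayed between 4.00 and 4.45 for HSPB8, 3.93 and 4.36 for BAG3, 2.90 and 3.24 for CRYAB, 2.72 and 2.99 for HSPB1, 1.64 and 1.84 for BAG2, and 1.15 and 1.30 for BAG6.

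**Figure D1:**
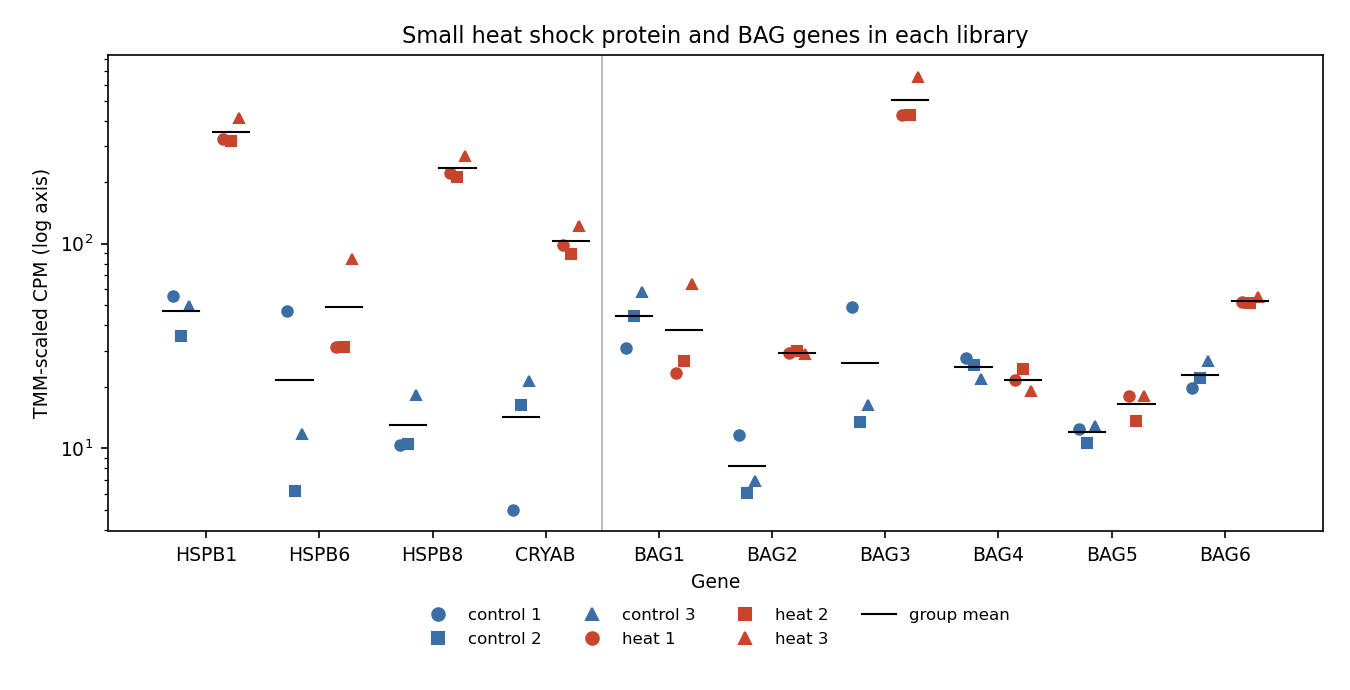
Abundance of the 10 genes in each library, as TMM-scaled CPM on a log axis. Blue marks are the 3 controls, red marks the 3 heat libraries and black bars the group means. HSPB1, HSPB8, CRYAB, BAG2, BAG3, BAG5 and BAG6 show no overlap between the groups, and heights of different genes are not comparable because reads were not divided by transcript length.

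HSPB8, the small heat shock protein that works in a complex with BAG3, had the lowest adjusted p of the 10 genes. Control 1, 2 and 3 held 10.4, 10.4 and 18.2 CPM, and heat 1, 2 and 3 held 221, 213 and 269 CPM. The lowest heat library was 11.7 times the highest control. On the log2 scale heat exceeded control by 4.17 ± 0.39 (SE), with a 95% interval of 3.27 to 5.06 (edgeR adjusted p = 0.00906). Counting HSPB8 itself, 90 tested genes had a log2 fold change this large or larger. HSPB8 lies on chromosome 14 at 33626125 to 33639824 of Sscrofa11.1, on the RefSeq map.

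HSPB1, also known as HSP27, an abundant small heat shock protein that also acts on actin filaments, was read at 55.5, 35.4 and 49.3 CPM in control 1, 2 and 3. The heat libraries stood at 327, 318 and 414 CPM. The groups were well apart, with the lowest heat library at 5.73 times the highest control. The log2 fold change was 2.92 ± 0.35 (SE; edgeR adjusted p = 0.0266), and it ranged from 2.72 to 3.04 when each library was left out in turn. The gene lies on chromosome 3 at 10038074 to 10039441.

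CRYAB, the alpha-B subunit of crystallin, is best known from lens and muscle. Its controls were uneven, since control 1 held 5.01 CPM while control 2 and 3 held 16.2 and 21.3 CPM. All heat libraries were higher, at 98.8, 89.6 and 122 CPM. This gave a log2 fold change of 2.87 ± 0.53 (SE; edgeR adjusted p = 0.0309). On the RefSeq map CRYAB (chromosome 9, 39638505 to 39643530) overlaps the annotated spans of its neighbour HSPB2, another small heat shock protein, and of C9H11orf1. Neither has a symbol in the count table, and the counting is not stated to use strand, so how reads were divided between these genes is uncertain.

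HSPB6, a small heat shock protein of muscle that is phosphorylated when smooth muscle relaxes, did not follow the groups. Control 1 stood at 46.7 CPM, above heat 1 and heat 2 at 31.3 and 31.2 CPM. Control 2 and 3 were at 6.20 and 11.8 CPM, and heat 3 was the highest at 84.1 CPM. The log2 fold change of 1.18 had a 95% interval from -0.59 to 2.96 (edgeR adjusted p = 0.301), which includes no change and also increases as large as that of HSPB1. Without control 1, a fit that called 3021 of 15407 tested genes higher, the log2 fold change was 2.42 and passed (edgeR adjusted p = 0.0302). Without heat 3 it was 0.52. Smooth muscle markers also had their highest sum in heat 3, 19282 CPM against 8551 and 8201 CPM in heat 1 and 2. In control 1 they summed to 13099 CPM, little above the 12007 and 12147 CPM of control 2 and 3. Among controls, control 1 was lowest for TAGLN, in the middle for ACTA2 and LMOD1, and highest for the other markers of the list. Among heat libraries, heat 3 was lowest for MYH11 and highest for the other markers. The part of smooth muscle cells in the HSPB6 values was not tested.

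BAG3, the stress-inducible member of its family, had the largest fold change of the 10 genes. Control 1 held 48.8 CPM, while control 2 and 3 held 13.4 and 16.3 CPM, so the highest control was 3.65 times the lowest. Heat libraries stood at 428, 424 and 655 CPM. Even the lowest of them was 8.69 times control 1. The log2 fold change was 4.26 ± 0.62 (SE), with a 95% interval of 2.83 to 5.70 (edgeR adjusted p = 0.0276), and 5.06 without control 1 (edgeR adjusted p = 0.00468). The sum of the stromal markers, nearly all of it from collagen genes, was also highest among controls in control 1 (59118 against 7422 and 6699 CPM). Among the heat libraries, heat 3 had the most BAG3 and a stromal sum of 28084 CPM, against 87926 and 79385 CPM in heat 1 and 2. The part of stromal cells in the BAG3 values was not tested. BAG3 lies on chromosome 14 at 129510240 to 129533998.

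BAG2, which inhibits the chaperone-linked ubiquitin ligase STUB1, rose from 11.6, 6.07 and 6.94 CPM in control 1, 2 and 3 to 29.2, 29.8 and 29.0 CPM in heat 1, 2 and 3. The heat libraries were almost level, with the highest at 1.03 times the lowest. This was a log2 fold change of 1.84 ± 0.34 (SE; edgeR adjusted p = 0.0300). BAG2 lies on chromosome 7 at 28668587 to 28680497.

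BAG6 takes part in the sorting of membrane proteins with a tail anchor and in the disposal of misplaced proteins. Controls were at 19.8, 22.01 and 26.8 CPM and heat libraries at 52.1, 51.4 and 54.7 CPM. Heat 3, which stood apart for BAG3 and HSPB6, was close to the other heat libraries here. The log2 fold change of 1.20 ± 0.28 (SE) was the smallest among the genes called (edgeR adjusted p = 0.0398), and it missed the threshold when low-count genes were kept in the test (edgeR adjusted p = 0.0516). The gene lies on chromosome 7 at 23756897 to 23768659.

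BAG1, BAG4 and BAG5 did not pass. BAG1 (chromosome 10, 33227530 to 33240731) joins HSP70 to the proteasome through a ubiquitin-like domain. It was read at 30.8, 44.2 and 57.9 CPM in control 1, 2 and 3 and at 23.4, 26.6 and 63.8 CPM in heat 1, 2 and 3. Heat 1 and 2 lay below all controls and heat 3 above all. Its log2 fold change of -0.22 had a 95% interval from -1.29 to 0.84 (edgeR adjusted p = 0.751) and was 0.02 without heat 1 and -0.84 without heat 3. Leaving out both control 1 and heat 3 gave -1.05, which passed (edgeR adjusted p = 2.12e-07), but in that fit only the closely alike libraries remain, and 41.2% of all tested genes were called higher and 38.4% lower.

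BAG4, or SODD, keeps death receptors such as TNFRSF1A silent. The controls were at 27.6, 25.5 and 21.8 CPM and the heat libraries at 21.4, 24.5 and 18.9 CPM. The groups overlapped, and the log2 fold change of -0.21 had a 95% interval from -0.84 to 0.42 (edgeR adjusted p = 0.608). Its annotated span (chromosome 15, 48299456 to 48348810) overlaps that of LSM1.

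BAG5, whose protein carries several BAG domains, was at 12.4, 10.6 and 12.9 CPM in controls and 18.1, 13.6 and 17.9 CPM in heat libraries. All heat libraries were above all controls, but the lowest was only 1.05 times the highest control. The log2 fold change of 0.46 ± 0.28 (SE) did not pass (edgeR adjusted p = 0.268; 95% interval from -0.18 to 1.11). Without control 1 and heat 3, the fit that called most genes, it was 0.41 and passed (edgeR adjusted p = 0.0222).

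**Figure D2:**
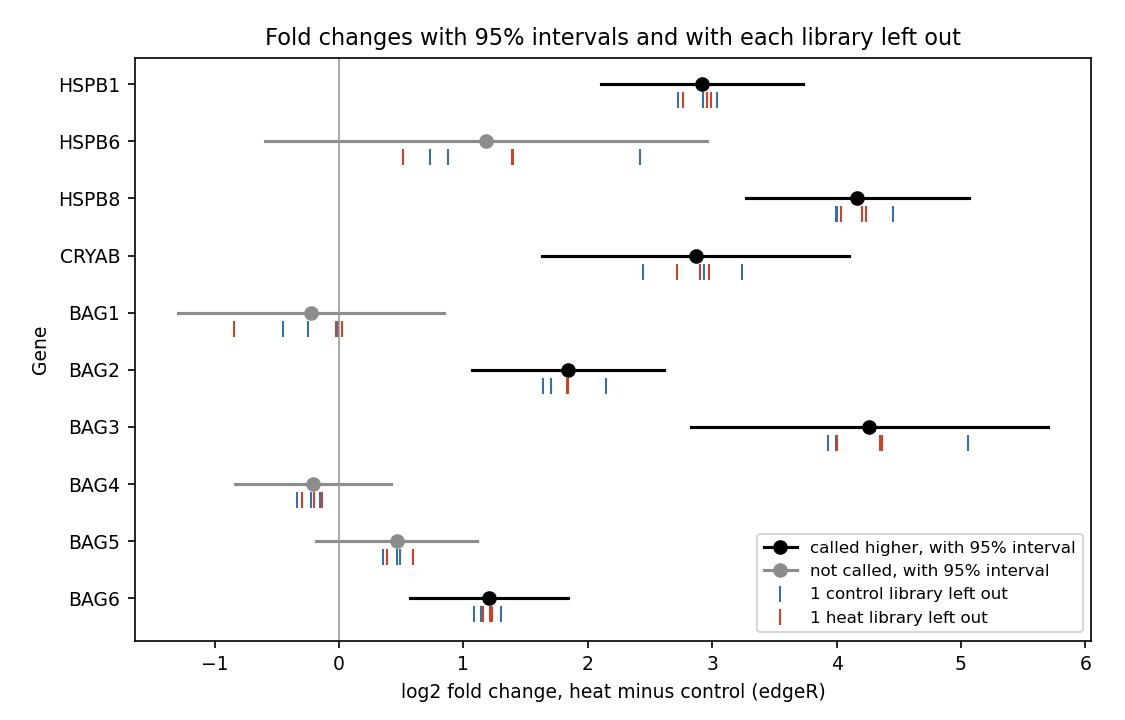
Log2 fold changes of the 10 genes, heat minus control, from edgeR. Circles with lines are the estimates with 95% intervals, black where the gene was called higher and grey where it was not, and the ticks below show the estimate with 1 control (blue) or 1 heat (red) library left out. BAG3 at 4.26 and HSPB8 at 4.17 lie furthest right, and the ticks of HSPB6 spread from 0.52 to 2.42.

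The make-up of the BAG family changed with heat. Shares of the reads of all BAG genes within a library do not depend on the scaling between libraries, although longer transcripts take more reads. Of the BAG reads, BAG3 made up 32.3, 10.97 and 11.4% in control 1, 2 and 3. In heat 1, 2 and 3 it made up 74.8, 74.4 and 78.0%. The 95% Wilson intervals of these shares, which cover counting error only, were 30.4 to 34.3% for control 1 and 73.6 to 75.2% for heat 2, the highest control and the lowest heat library. BAG1 took 20.4 to 40.6% in controls and 4.09 to 7.60% in heat. Summed over the family, BAG genes stood at 138 ± 15.1 CPM in controls and 660 ± 155 CPM in heat (SD, n = 3).

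Among the small heat shock proteins the make-up moved differently. HSPB1 held between 46.6 and 51.9% of their reads in every library of either group. HSPB8 took 8.85, 15.3 and 18.1% in control 1, 2 and 3. Its share in heat 1, 2 and 3 was 32.6, 32.7 and 30.2%. HSPB6 took 39.7% in control 1, against 9.09 and 11.7% in the other controls and 4.62 to 9.46% in heat. CRYAB took 4.26% in control 1 and 21.1 to 23.8% in the other controls, with 13.7 to 14.6% in heat. The 4 genes summed to 95.5 ± 25.1 CPM in controls and 739 ± 130.1 CPM in heat (SD, n = 3).

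**Figure D3:**
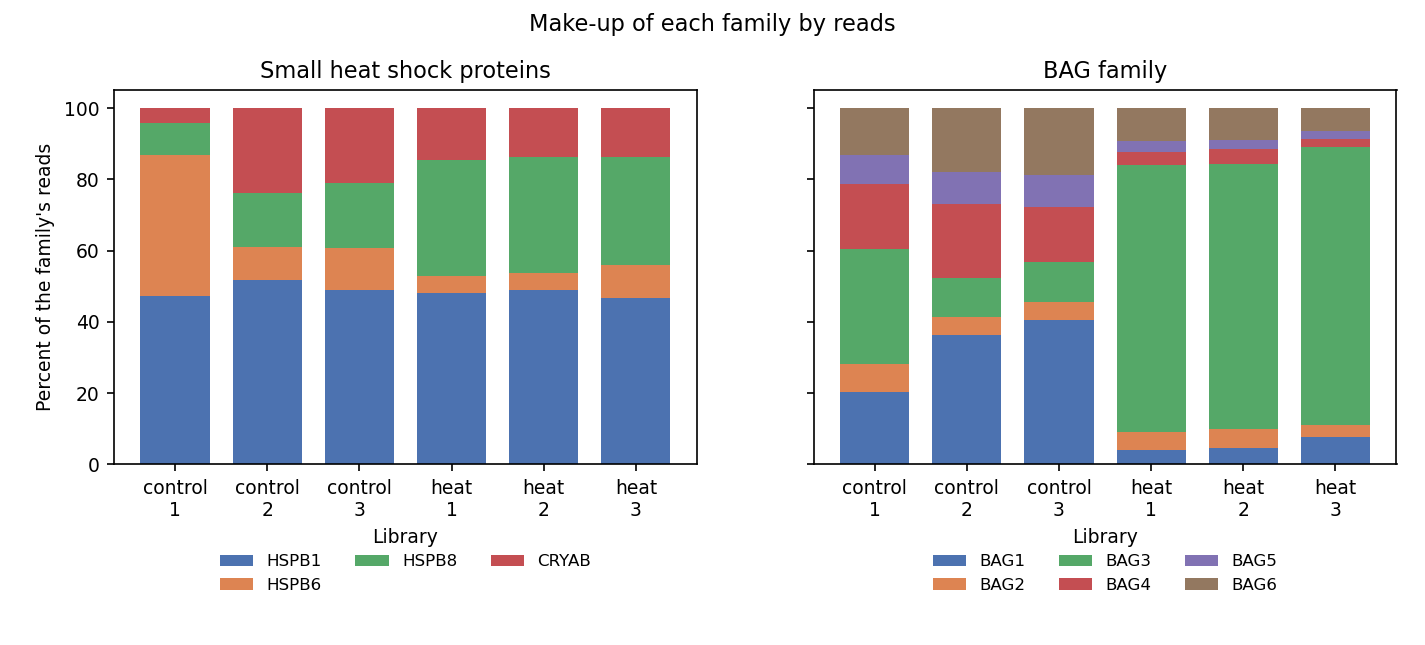
Make-up of each family in each library, as the percent of the family's reads that each gene took. The BAG3 segment grows from between 10.97 and 32.3% in controls to between 74.4 and 78.0% in heat, and the HSPB1 segment stays between 46.6 and 51.9% in all 6 libraries.

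Whether members of a family differed in their response was asked with ratios of reads within a library. For each of the other BAG genes, the log2 ratio of BAG3 to that gene was higher in every heat library than in every control. The mean difference was 4.81 for BAG1, 4.69 for BAG4, 4.03 for BAG5, 3.27 for BAG6 and 2.59 for BAG2. The ratio of BAG3 to BAG2, the member nearest to BAG3 in response, went from 2.08, 1.14 and 1.23 in control 1, 2 and 3 to 3.87, 3.83 and 4.50 in heat 1, 2 and 3. Without control 1 the difference was 5.62 for BAG1 and 3.94 for BAG6.

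HSPB8 also rose relative to the other small heat shock proteins. Against HSPB1 its log2 ratio was -2.41, -1.76 and -1.43 in control 1, 2 and 3. It stood at -0.57, -0.58 and -0.62 in heat 1, 2 and 3, a mean difference of 1.28. Against HSPB6 the mean difference was 2.68, and 1.73 without control 1. The ratio to CRYAB gave the smallest difference, 1.12. There the gap between groups was narrow, since control 1 stood at 1.05 and the lowest heat library at 1.14. All 8 ratios had a two-sided exact permutation p of 0.1 (Benjamini-Hochberg adjusted 0.1), the smallest that 3 against 3 samples can give, so none could reach 0.05.

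BAG3 and HSPB8 did not keep a fixed ratio to each other. There were 4.69, 1.28 and 0.894 BAG3 reads per HSPB8 read in control 1, 2 and 3. This number was 1.94, 1.99 and 2.44 in heat 1, 2 and 3. The heat libraries lay within the range of the controls.

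**Figure D4:**
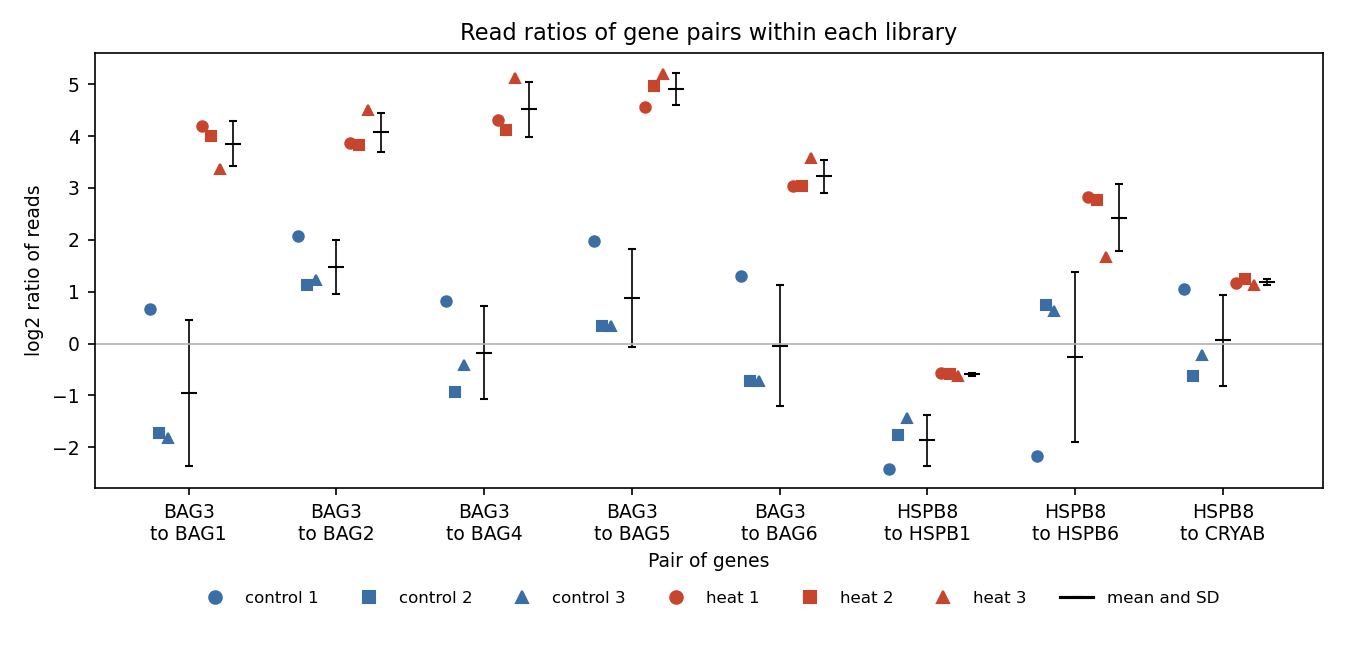
Log2 ratios of reads of gene pairs within each library, with 0.5 reads added to each count. Points are libraries, and black marks are group means with SD (n = 3). In all 8 pairs the heat libraries (red) lie above the controls (blue), with the closest approach for HSPB8 to CRYAB.

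Genes that act with these proteins were read from lists of known partners. Of 13 tested HSP70 partners and exchange factors, 5 rose, 0 fell and 8 did not pass (edgeR), with a median log2 fold change of 1.17. Over all tested genes, 6.71% were called higher and 4.32% lower, and the median was 0.05. HSPA6, a strictly inducible HSP70, was at 0.267, 0.873 and 0.347 CPM in the controls and at 156, 149 and 501 CPM in heat. HSPA1L, an HSP70 relative, rose by 3.70 ± 0.39 and DNAJB1, an HSP40 that activates HSP70, by 3.74 ± 0.63 on the log2 scale (SE). HSP70.2 rose by 5.41 ± 0.49, but reads of HSP70.2 and HSPA1L are uncertain, since HSP70 genes overlap and resemble each other. STUB1, the ligase that BAG2 inhibits, did not pass (edgeR adjusted p = 0.182), with 13.8 ± 3.5 CPM in controls and 21.8 ± 3.86 CPM in heat (SD, n = 3). HSPBP1, a further exchange factor, missed the threshold at 1.21 ± 0.39 against 3.30 ± 0.64 CPM (SD, n = 3; edgeR adjusted p = 0.0610). Without control 2 or control 3 edgeR called 0 of this list and 0 of all tested genes. Without heat 1 or heat 2 it called only HSPA6 of this list, and 7 and 6 of all tested genes higher. STUB1 and HSPBP1 are named beside the naming rule, for their link to the BAG proteins.

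Of 24 tested factors of BAG3-guided aggresome formation and autophagy, 2 rose, 0 fell and 22 did not pass (edgeR). This is near the share of all tested genes, of which 6.71% were called higher, and says nothing particular about the list. At an unadjusted p below 0.05 there were 6 higher and 1 lower (19.5% and 14.4% of all tested genes). DESeq2 called 4 higher and 1 lower (14.9% and 12.6% of all tested genes). Limma-voom called 4 higher and 0 lower (7.41% and 5.14%). SYNPO, an actin-binding protein related to a BAG3 partner of muscle, was at 16.6, 6.81 and 9.72 CPM in the controls and at 35.5, 34.5 and 42.0 CPM in heat (log2 fold change 1.76 ± 0.38, SE; edgeR adjusted p = 0.0381). FLNA, the filamin that crosslinks actin and is a client of the BAG3 complex, was at 1842, 768 and 970 CPM in the controls and at 5253, 5115 and 3551 CPM in heat (log2 fold change 1.96 ± 0.52, SE; edgeR adjusted p = 0.0498). The FLNA call was lost with another scaling of the libraries, DESeq2's size factors, under which edgeR called 1 member of the list. Without control 2, control 3, heat 1 or heat 2 edgeR called 0 members, and 0, 0, 7 and 6 of all tested genes higher. Without control 1 it called 8 higher and 1 lower, where 3021 and 1901 of all 15407 tested genes were. Without heat 3 it called 4 higher and 4 lower, where 2817 and 2713 of all 15325 tested genes were. The list's median log2 fold change was 0.26.

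Other small heat shock proteins were scarce. HSPB7 and HSPB3, both known from heart and skeletal muscle, were the only tested ones with a symbol. Of these 2, edgeR called 0, where 6.71% of all tested genes were called higher. At an unadjusted p below 0.05 both were higher (19.5% of all tested genes). DESeq2 called both and limma-voom 0. HSPB7 was at 3.07, 2.53 and 5.36 CPM in controls and 7.88, 6.79 and 24.3 CPM in heat, and HSPB3 was at 3.87, 0.830 and 1.39 CPM in controls and 6.53, 4.56 and 16.2 CPM in heat. As with HSPB6, heat 3 was the highest library for both. HSPB9 and ODF1, small heat shock proteins of testis, had no read.

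Partners of BAG6 and of the BAG proteins that act on cell death did not pass. For the BAG6 complex and tail-anchored protein insertion, edgeR called 0 of 10 tested genes. Over all tested genes edgeR called 6.71% higher and 4.32% lower, so 0 calls in lists this short say nothing particular about them. At an unadjusted p below 0.05 there were 3 higher and 0 lower (19.5% and 14.4% of all tested genes). DESeq2 called 0 (14.9% and 12.6% of all tested genes), as did limma-voom (7.41% and 5.14%). Every heat library lay above every control for 3 genes and below every control for 1 (20.9% and 16.8% of all tested genes). UBQLN1, a ubiquitin-binding shuttle of the list, stood at 146 ± 15.1 CPM in controls and 166 ± 64.0 CPM in heat (SD, n = 3). Of 5 genes that BAG proteins bind or stabilise around BCL2, edgeR, DESeq2 and limma-voom called 0. An unadjusted edgeR p below 0.05 was found for 0 of the 5, where 19.5% of all tested genes were higher and 14.4% lower. MCL1 was at 301 ± 125 CPM in controls and 221 ± 61.7 CPM in heat, and the death receptor TNFRSF1A was at 65.5 ± 50.1 and 110 ± 49.5 CPM (SD, n = 3).

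Heat shock transcription factors and their regulator HSBP1 formed a list of 5 genes, of which 4 were tested and edgeR called 0. Over all tested genes 6.71% were called higher and 4.32% lower. HSF1 was the only one with an unadjusted edgeR p below 0.05 (log2 fold change 1.46 ± 0.44, SE; edgeR adjusted p = 0.0649), and DESeq2 and limma-voom called it higher. HSBP1, which binds HSF1, and HSF2 had the highest means of this list. They stood at 130 ± 22.6 against 94.6 ± 56.6 CPM and 37.7 ± 3.30 against 30.6 ± 3.54 CPM (SD, n = 3).

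Genes with a pattern most like that of BAG3 and HSPB8 over the 6 libraries were found by the root mean square difference of centred log2 CPM among 11307 tested genes with a symbol. For HSPB8 the nearest were ZFAND2A, a stress protein of the proteasome, at 0.23 log2 units, and the HSP40 gene DNAJA4 at 0.34, followed by C1QTNF12, TENT5C and RGS2 at 0.46 to 0.48. C1QTNF12 was near the floor, at 0 CPM in the controls and 1.89, 2.19 and 1.13 CPM in heat. Its distance therefore depends on the small count (2) added before the log2 step. DNAJA4 was read at 12.8, 18.6 and 18.0 CPM in controls and at 226, 219 and 223 CPM in heat. For BAG3 the nearest were TENT5C at 0.33, the heme-degrading enzyme HMOX1 at 0.44 and the HSP70 exchange factor HSPH1 at 0.50, followed by ZFAND2A and HSPA1L at 0.56 and 0.57. HSPH1, like BAG3, was highest among controls in control 1, with 189 CPM against 100.1 and 87.7 CPM, and stood at 1433, 1434 and 1678 CPM in heat.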

How the data were processed

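Raw read counts for each Ensembl identifier were deposited by the authors in 1 table with a column for each of 6 libraries. Per the submitters' processing notes, FastQC 0.11.4, Trim Galore, STAR and the build Sscrofa11.1 were used; which tool counted reads is not named in the labels. The authors' second table holds a normalized signal, counts of 13298 genes divided by 1 factor per library. Whole reads were recovered for 100% of its values (tolerance 1e-06), and edgeR on them called 1631 of 13208 genes.

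Symbols and RefSeq positions came from reference tables. Genes passing filterByExpr (minimum count 10) were tested with edgeR 4.0.16 in R 4.3.3 (TMM factors, robust quasi-likelihood F test, two-sided, Benjamini-Hochberg over 14242 genes). CPM are TMM-scaled, and ± SE is the absolute log2 fold change over the square root of F. Ratios used 0.5 added reads and SciPy 1.17.1. The test was checked on simulated data.

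Members, lists and tests were chosen with earlier results of these data known. Named were all members, up to 4 called genes per list by fold change (otherwise the 2 with the highest means), and the 5 genes most like BAG3 and HSPB8. Alternatives were other scalings and filters, a replicate block, DESeq2 1.42.0, limma 3.58.1 (voom, and on log2 signal plus 1 or 0.5), an adjusted p below 0.01 and each library left out. Leaving out control 1 with heat 3, summing the close libraries and the recovered reads were chosen after seeing the data. A planned description of promoter and protein sequences was not made. The values of 1 gene that the naming rule selects are not reported here.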

Additional observations from a re-analysis of the deposited data

How the results depend on the processing

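Each of the 10 fold changes kept its sign in every alternative, except BAG1. The log2 fold change of BAG1 was 0.0861 with the close libraries summed (control 2 with 3, heat 1 with 2) and ranged from -0.840 to 0.0223 when each library was left out, the latter without heat 1. The count of 6 members higher was 5 without the low-count filter and 6 under the other scalings, tests and filters. It was 1 at an adjusted p below 0.01 and 0 with the close libraries summed, and ranged from 0 to 7 when each library was left out. Without control 1 and heat 3 it was 8, with 1 lower (BAG1).

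The counts over all genes, 956 higher and 615 lower, moved more. Higher genes numbered 1583 with library totals only (416 lower, a more one-sided split), 1607 with no filter, 532 at 10 CPM in 3 samples, 2118 with DESeq2 and 9 at an adjusted p below 0.01. Lower genes numbered 396 at 10 CPM, 1792 with DESeq2, 950 with limma on the normalized signal plus 1, and 1 below 0.01. Without control 1 and heat 3 there were 6285 higher and 5857 lower, and with the close libraries summed 2 and 0. Leaving out each library gave 0 to 3021 higher and 0 to 2713 lower. Scaling by library totals moved the median of all genes from 0.05 to 0.17.

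With a replicate block edgeR called the same 6 members higher and 0 lower, and 2104 genes were higher and 1300 lower. Same-numbered libraries deviated together in pairs 1 and 3 (r = 0.299 and 0.223) but not in pair 2 (r = -0.232), and control 2 was closest to heat 3 (r = 0.287). Deviations from a group mean depend on each other within the group. These values therefore cannot decide whether same-numbered samples were paired. The 8 ratios kept their direction in all alternatives. On simulated data of this comparison (14242 genes) edgeR called 1 of 50 genes changed 2-fold, 12 of 50 changed 4-fold and 45 of 50 changed 8-fold. There were 4 false calls. Only 50 genes were changed at each fold, where 1571 were called in the real data, and the libraries were drawn independently. These counts therefore do not give the share of changed genes that the test would find in the real data. Smaller changes were not simulated. BAG5 passed only without control 1 and heat 3 (0.41, edgeR adjusted p = 0.0222).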

Other observations

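The genes next to the members on the RefSeq map were read as a description; they were chosen after the members' values were seen. BAG5 has no chromosome in that map, and the other 9 members have 18 nearest protein-coding neighbours, of which 13 were tested. Of these, 1 was called higher, 0 lower and 12 were not called (edgeR), a share near that of all tested genes, of which 6.71% were called higher. The called neighbour was SRRM3, a splicing factor gene 7097 bases from HSPB1, at 0.868, 0.349 and 0.248 CPM in control 1, 2 and 3 and 5.14, 5.02 and 1.28 CPM in heat 1, 2 and 3 (log2 fold change 2.99 ± 0.73, SE; edgeR adjusted p = 0.0439). Heat 3 was the lowest heat library for SRRM3 and the highest for HSPB1.

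Of the 13 tested neighbours, 3 were higher and 4 lower in every heat library than in every control, where 20.9% and 16.8% of all tested genes were. The 4 were ZNF451 beside BAG2, APOM beside BAG6 and both neighbours of BAG3, which did not pass. The RNA-binding protein gene TIAL1 was at 95.3 ± 7.75 CPM in controls and 70.9 ± 4.69 CPM in heat, and the phosphatase gene INPP5F at 75.4 ± 27.3 and 27.0 ± 10.6 CPM (SD, n = 3; edgeR adjusted p = 0.288 and 0.0580). PRRC2A, 947 bases from BAG6, was at 65.8 CPM in control 1, 11.6 and 16.5 CPM in control 2 and 3, and 102, 102 and 101 CPM in heat, and did not pass (edgeR adjusted p = 0.107). LIN37, 56 bases from HSPB6, was at 16.1, 15.1 and 4.49 CPM in heat 1, 2 and 3, lowest in heat 3, where HSPB6 was highest, and did not pass (edgeR adjusted p = 0.0883).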
